A study of Mus musculus with 2 samples.

Results

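Fcer1g, Lyn, Dok1, Ptpn22, Rgs13 and Cd55 act at or near the mast cell's IgE receptor or at its outer membrane, and their RNA was compared between wild type (WT) and Tet2-/- mast cells. They are 6 of the 8139 gene symbols in the deposited table. They were chosen by function from the symbols in the table, with the WT and Tet2-/- values of these same 2 libraries already known, so every difference between the libraries is given as a description and none is tested. Each library came from a culture of mast cells raised from C57BL/6 marrow, WT in 1 library and Tet2-/-, lacking the 5-methylcytosine dioxygenase Tet2, in the other. Both cultures were grown from femoral marrow with interleukin-3 at 10 ng/ml and stem cell factor at 5 ng/ml for 4 to 6 weeks, and cultures with more than 97.5% of cells positive for c-Kit and the IgE receptor were taken. No allergen or IgE treatment is named in the labels. The depth inferred from the values was 31400000 fragments in WT and 32000000 in Tet2-/-. The way Tet2 was disrupted, the number of mice and any pooling remain not given in the sources used here.

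The high-affinity IgE receptor of mast cells is built from an IgE-binding alpha chain, a beta chain and a pair of gamma chains. When antigen cross-links bound IgE, the Src-family kinase Lyn phosphorylates the tyrosine activation motifs of the beta and gamma chains, the kinase Syk docks there, and calcium release, degranulation and cytokine production follow. Adaptors, phosphatases and GTPase-activating proteins at the membrane limit this signal. The alpha and beta chain genes Fcer1a and Ms4a2, and Syk, are among the genes not analysed here, as is Tet2 itself, so expression gives no check on the genotype labels. Of the mast cell markers, 3 of 19 are in the table: the monoamine transporter gene Slc18a2 at 572 RPKM in WT against 491 RPKM in Tet2-/-, the transcription factor gene Mitf at 31.3 and 30.9 RPKM, and the prostaglandin D synthase gene Hpgds at 68.9 and 66.5 RPKM.

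RPKM is a read count divided by gene length and library depth, so levels can be compared between genes. All 6 genes were detected in both libraries, and their levels spanned a wide range. In WT the order from the highest level was Fcer1g, Cd55, Lyn, Dok1, Rgs13 and Ptpn22. In Tet2-/- Cd55 stood above Fcer1g, and the other 4 kept their places. Rgs13 and Ptpn22, the lowest of the 6, were each more than 2 times as high in WT as in Tet2-/-, Fcer1g was 1.36 times as high in WT, Cd55 was 1.34 times as high in Tet2-/-, and Lyn and Dok1 lay close to a ratio of 1. With 1 library per genotype there is no spread between replicates to set these values against, so no p-value is given and neighbouring levels in the order cannot be separated by replicate error. Fewer cells of a type and less RNA per cell cannot be told apart in such bulk libraries.

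**Figure D1:**
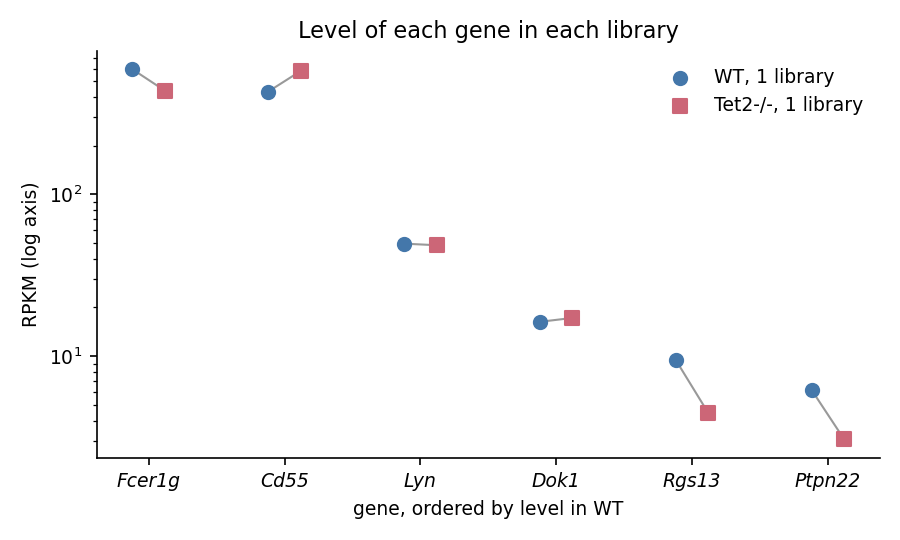
RPKM of each of the 6 genes on a log axis, circles for the WT library and squares for the Tet2-/- library, joined for each gene. Fcer1g and Cd55 lie above 400 RPKM in both libraries and swap order, Lyn and Dok1 are nearly level, and Rgs13 and Ptpn22 lie lower in Tet2-/-.

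Because Tet2 acts on methylated cytosine, the sequence before the start site is shown for the 4 of the 6 genes with a window in the RefSeq table used here (GRCm38.p6, the same coordinates as mm10). These are Rgs13, Ptpn22, Fcer1g and Cd55, and not Lyn and Dok1. Each line holds the 250 bases before the start site, written 5′ to 3′ on the gene's own strand. The windows are chr1:144177373-144177622 on the minus strand for Rgs13, chr3:103859545-103859794 on the plus strand for the upstream one of the 2 listed starts of Ptpn22, chr1:171234350-171234599 on the minus strand for Fcer1g, whose RefSeq start lies 16 bases inside the GENCODE gene model, and chr1:130462745-130462994 on the minus strand for Cd55. Capitals mark matches to 6 short motifs of factors active in myeloid cells, searched on both strands: AGATAA for GATA factors, CATGTG for E-box factors, AGGAAG for ETS factors, TGTGGT for RUNX factors, TTCNNNGAA for STAT factors and TGANTCA for AP-1. No 2 matches overlap in these windows.
Rgs13: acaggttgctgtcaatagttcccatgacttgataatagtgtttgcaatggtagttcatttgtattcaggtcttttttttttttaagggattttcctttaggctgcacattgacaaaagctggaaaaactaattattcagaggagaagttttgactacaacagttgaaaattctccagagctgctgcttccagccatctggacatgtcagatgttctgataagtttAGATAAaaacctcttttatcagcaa
Ptpn22: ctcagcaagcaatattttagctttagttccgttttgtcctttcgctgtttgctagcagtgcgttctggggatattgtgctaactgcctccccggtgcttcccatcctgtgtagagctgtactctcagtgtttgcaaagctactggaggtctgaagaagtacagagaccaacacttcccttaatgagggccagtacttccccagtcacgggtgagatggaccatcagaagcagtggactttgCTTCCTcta
Fcer1g: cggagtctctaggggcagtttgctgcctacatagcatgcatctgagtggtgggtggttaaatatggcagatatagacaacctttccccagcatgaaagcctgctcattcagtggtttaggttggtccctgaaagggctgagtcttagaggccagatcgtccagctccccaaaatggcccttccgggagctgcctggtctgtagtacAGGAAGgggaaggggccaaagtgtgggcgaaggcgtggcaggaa
Cd55: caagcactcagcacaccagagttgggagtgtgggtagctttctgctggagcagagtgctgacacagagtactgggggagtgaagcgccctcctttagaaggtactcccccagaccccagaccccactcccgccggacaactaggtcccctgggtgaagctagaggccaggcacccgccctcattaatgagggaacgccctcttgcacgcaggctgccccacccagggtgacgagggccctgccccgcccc

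The Rgs13 window held 1 GATA match, starting 25 bases before the start site, and no CpG dinucleotide. The other windows shown did hold CpG, 5 in Ptpn22, 5 in Fcer1g and 8 in Cd55. Across 32851 RefSeq windows of this length the median was 6, and 92.1% held more CpG than the Rgs13 window. The GC content of the Rgs13 window was 36% and that of the Cd55 window 64%, beside a median of 52.4%. Ptpn22 and Fcer1g held 1 ETS match each, which begin 9 and 44 bases before their start sites, and Cd55 held none of the motifs. The window of the other listed Ptpn22 start, which lies 482 bases further along and is not printed, held 2 CpG, 1 ETS match, 2 RUNX matches and 1 STAT match. Of all windows, 9.99% held the GATA letters, 29.5% the ETS letters, 12.3% the E-box letters, 14% the RUNX letters, 7.02% the STAT letters and 6.75% the AP-1 letters. A match is a description of the exact letters searched. Other letter forms that the same factors may bind were not searched, so unmarked stretches may hold such sites. Methylation was not measured in these files.

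**Figure D2:**
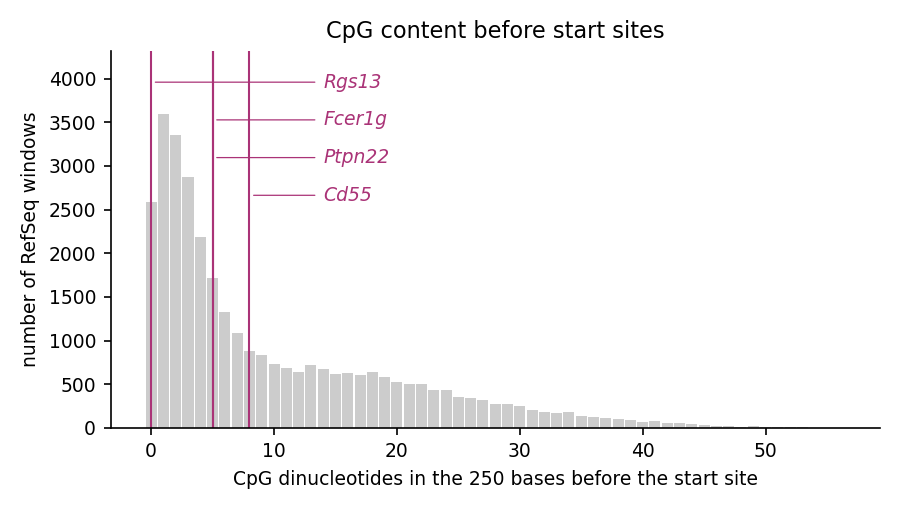
Number of RefSeq windows (vertical axis) by the count of CpG dinucleotides in the 250 bases before the start site (horizontal axis), with lines at the 4 genes that have a window. Rgs13 lies at 0, Fcer1g and Ptpn22 at 5 and Cd55 at 8, beside a median of 6.

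Fcer1g encodes the gamma chain, a short signalling subunit shared by the IgE receptor, activating IgG receptors and several lectin and immunoglobulin-like receptors of myeloid cells. It was at 594 RPKM in WT against 438 RPKM in Tet2-/-. The WT level was thus 1.36 times the Tet2-/- level, with a counting interval of 1.32 to 1.40, on an estimated 9220 and 6919 fragments. Such intervals are exact 95% Clopper-Pearson intervals made from fragment numbers inferred from the spacing of low values, and they cover counting error only, not the variation between cultures or mice. Among 1762 protein-coding genes at 1 RPKM or more on average, Fcer1g held place 25 by level in WT and place 37 in Tet2-/-. Of 21951 annotated protein-coding genes, 3742 were among the symbols analysed here. All places and comparisons with other genes therefore hold within that part and not over all genes. Of 38 such genes with a mean level within 2-fold of its own, 2 lay as far from a ratio of 1. The gene lies on chromosome 1, 171229572 to 171234365, minus strand, mm10. None of the stretches of 50 bases in its shortest coding transcript occurs in a transcript of another gene. Only that transcript was searched, here and for the other genes described below.

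Cells other than mast cells also use the gamma chain, so their markers are given beside it. The 6 listed macrophage and monocyte markers, of 17 in the list, were higher in Tet2-/- in 6 of 6 cases and summed to 1.06 RPKM in WT against 23.8 RPKM in Tet2-/-, most of which was Ly6c2, a gene with a close copy, at 0.479 and 18.8 RPKM. Csf1r, the receptor gene that defines the lineage, was at 0.122 and 1.32 RPKM, and the complement gene C1qb at 0.105 and 1.51 RPKM. The 3 listed neutrophil markers, of 15, summed to 1.12 and 10.1 RPKM, with Csf3r listed at 0.01 in both libraries, a value taken to stand for no reads. The eosinophil markers, 2 of 8 listed, summed to 0.829 and 2.27 RPKM, and most of that gap was Ear2, at 0.117 and 1.45 RPKM. The basophil protease gene Mcpt8, the listed gene of 6 basophil markers, was at 56.1 and 163 RPKM. Apart from Csf3r, these markers were higher in the library in which Fcer1g was lower, and their part in its level was not tested. Lymphocyte markers, 2 of 13 listed, summed to 0.836 and 1.38 RPKM, the platelet gene Ppbp was at 0.01 in both, and the 9 dendritic cell markers are not analysed here.

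Of the listed receptors that signal through the gamma chain or similar adaptors, 5 lay above a ratio of 1, all below 10 RPKM. Cd300lb, the one at a higher level, lay below it. Of all protein-coding genes at 1 RPKM or more on average, 52.0% were higher in Tet2-/-, so nothing is read from this count. The fixed list of Fc receptors and activation-motif adaptors had 8 of 29 genes in the table, of which 6 passed a mean of 1 RPKM and none reached 2-fold on the log2(RPKM + 1) scale, with a median log2 fold of 0.42. Of the genes below 10 RPKM, Clec4d, Clec4n, Pira2, Ncr1 and Fcgr4 were named after their values were seen. Clec4d, a C-type lectin receptor gene, was at 1.16 RPKM in WT against 3.08 RPKM in Tet2-/-, with a ratio of 2.66 (1.84 to 3.86). Clec4n, which encodes Dectin-2, a receptor for fungal mannans, was at 1.27 and 3.17 RPKM. Pira2, a paired immunoglobulin-like receptor gene, was at 3.597 and 5.68 RPKM, with a ratio of 1.58 (1.33 to 1.89), and the natural cytotoxicity receptor gene Ncr1 was at 0.811 and 1.23 RPKM with an interval from 0.939 to 2.38. The levels of these 4 genes were thus higher in Tet2-/- while that of Fcer1g was lower, although the interval of Ncr1 includes 1 and Clec4n has none. Cd300lb, an activating receptor gene of myeloid cells, was at 36.7 and 34.7 RPKM, and the IgG receptor gene Fcgr4 was at 0.0296 and 0.174 RPKM a ratio of 5.89 whose interval from 0.714 to 270.8 rests on an estimated 1 and 6 fragments. Pira2 belongs to a family of close copies, and reads shared among them would make its value uncertain.

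Lyn, the kinase that phosphorylates the receptor's activation motifs and also the inhibitory motifs of opposing receptors, was at 49.6 RPKM in WT against 48.5 RPKM in Tet2-/-. The ratio of Tet2-/- to WT was 0.978 with a counting interval of 0.940 to 1.02, on an estimated 4999 and 4980 fragments. The libraries were closer for Lyn than for the other 5 genes. Since Fcer1g was lower in Tet2-/- and Lyn was nearly level, the level of Fcer1g was 11.97 times that of Lyn in WT and 9.02 times in Tet2-/-. Lyn (chromosome 4, 3678115 to 3813122, plus strand) overlaps 4 annotated noncoding or pseudogene models on the opposite strand, of which 9430025C20Rik is listed, at 0.264 and 0.242 RPKM. Of the stretches of 50 bases in its shortest coding transcript, 20.5% also occur in a transcript of another gene, 493 of 3338 of them in the pseudogene Gm11787, so part of its signal is uncertain. Of 11 Src-family and related kinase genes, the other listed one was Yes1, at 0.0154 RPKM in WT and 0.01 in Tet2-/-, and whether 0.01 stands for no reads is not stated.

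Of the 38 genes on the fixed list for the receptor and its proximal activation, 5 were in the table, all past 1 RPKM, and none reached 2-fold. The list's median log2 fold was -0.03, beside 0.01 over all models past the filter. The kinase gene Pdpk1 was at 15.2 RPKM in WT against 16.7 RPKM in Tet2-/-, with an interval of the ratio from 0.992 to 1.21. Itpr3, which encodes a calcium channel of the endoplasmic reticulum opened by inositol trisphosphate, was at 6.57 and 4.57 RPKM, with a ratio of 0.695 (0.647 to 0.747), and was named after its value was seen. Fcer1g and Itpr3 were thus the 2 genes of this list well below a ratio of 1.

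Dok1 encodes an adaptor that is phosphorylated near activated receptors and recruits the Ras GTPase-activating protein, which dampens Ras and Erk signalling. It was at 16.3 RPKM in WT against 17.2 RPKM in Tet2-/-, with a ratio of 1.06 with a counting interval of 0.960 to 1.16, on an estimated 833 and 897 fragments. The levels therefore differed by less than counting error alone allows. Of 778 protein-coding genes within 2-fold of its level, 64.0% lay as far from a ratio of 1 or farther. The gene (chromosome 6, 83030934 to 83033471, minus strand) overlaps no other annotated gene, and none of its stretches of 50 bases occurs in a transcript of another gene. The other 6 DOK family genes are not analysed here.

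Ptpn22 encodes a tyrosine phosphatase of the PEST type that, in lymphocytes, works with the kinase Csk to remove the activating phosphate of Src-family kinases. It was at 6.19 RPKM in WT against 3.06 RPKM in Tet2-/-. The WT level was 2.02 times the Tet2-/- level, with a counting interval of 1.73 to 2.36, on an estimated 498 and 251 fragments. By log2 fold it held place 24 from the lowest of 1762 protein-coding genes, and of 429 genes within 2-fold of its level, 34 (7.93%) lay as far from a ratio of 1. The other PEST-type phosphatase genes are both listed. Ptpn12 was at 59.0 and 52.8 RPKM, with a ratio of 0.894 (0.861 to 0.928), and Ptpn18 at 83.4 and 79.4 RPKM with an interval from 0.849 to 1.07. Both were closer to a ratio of 1 than Ptpn22 and far above it in level, and the median log2 fold of the 3 was -0.16. Ptpn22 (chromosome 3, 103859795 to 103912247, plus strand, 21 exons) lies 29.6 Mb from Tet2 on the same chromosome. The pseudogene Gm15602 overlaps it on the opposite strand and is not analysed here. A sense-strand RNA within it, Gm15472, was at 0.0949 and 0.0938 RPKM. None of its stretches of 50 bases occurs in a transcript of another gene.

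Rgs13 encodes a small regulator of G protein signalling, which speeds GTP hydrolysis by G alpha subunits and is known in mast cells as a brake on IgE-driven degranulation. It was at 9.48 RPKM in WT against 4.45 RPKM in Tet2-/-. Of the 6 genes it had the widest gap as a ratio, although its counting interval overlaps that of Ptpn22. The WT level was 2.13 times the Tet2-/- level, with a counting interval of 1.79 to 2.55, on an estimated 396 and 189 fragments. It held place 19 from the lowest by log2 fold, and of 588 genes within 2-fold of its level, 27 (4.59%) lay as far from a ratio of 1. The gene (chromosome 1, 144138654 to 144177372, minus strand, 6 exons in its shortest coding transcript) lies between Rgs2 and Rgs1, which are not analysed here. Its shortest coding transcript shares no stretch of 50 bases with another gene's transcripts. Of the 22 genes on the RGS list, 5 were in the table. Rgs12 was at 40.1 RPKM in WT against 33.8 RPKM in Tet2-/-, with a ratio of 0.842 (0.799 to 0.887). Rgs19, by contrast, was at 63.8 and 74.4 RPKM, with a ratio of 1.17 (1.07 to 1.28), and Rgs6 and Rgs7 were at 0.01 in both. The 3 RGS genes past the filter had a median log2 fold of -0.24 and lay on both sides of a ratio of 1.

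Cd55 encodes decay-accelerating factor, a lipid-anchored membrane protein that protects the cell from complement by dismantling convertases. It was at 432 RPKM in WT against 581 RPKM in Tet2-/-, with a ratio of 1.34 with a counting interval of 1.32 to 1.36, on an estimated 31951 and 43727 fragments. Of the 2 genes above a ratio of 1, it was the one whose interval left out 1, at place 128 from the highest log2 fold and place 29 by level, against place 35 in WT. Of 39 genes within 2-fold of its level, 4 lay as far from a ratio of 1. The level of Fcer1g was 1.37 times that of Cd55 in WT and 0.754 times in Tet2-/-. Their differences, Tet2-/- minus WT, were -157 RPKM for Fcer1g and 148 RPKM for Cd55, so the sum over the 6 genes was 1108 RPKM in WT against 1092 RPKM in Tet2-/-. Cd55 (chromosome 1, 130439027 to 130462744, minus strand, 10 exons) overlaps the antisense RNA Gm16083 by 169 bases, which was at 0.743 and 0.752 RPKM. Its close copy Cd55b lies 16018 bases away and is not analysed here, and 331 of 2484 stretches of 50 bases in Cd55 also occur in Cd55b, so reads of the copies may have been shared. The other genes of the list of 15 complement receptors and regulators are not analysed here.

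The inhibitory list, which holds Dok1 and Ptpn22, had 7 of 41 genes in the table, all past 1 RPKM and none past 2-fold, with a median log2 fold of -0.16. Tnfaip3, the gene of the ubiquitin-editing enzyme A20, was at 19.4 RPKM in WT against 21.2 RPKM in Tet2-/-, with a ratio of 1.09 (1.04 to 1.15). Rabgef1, which encodes an exchange factor that limits receptor signalling through endocytosis, was at 14.5 and 16.6 RPKM, with a ratio of 1.14 (1.05 to 1.24). Milr1, the gene of the inhibitory receptor allergin-1, was at 25.03 and 21.6 RPKM, with a ratio of 0.864 (0.758 to 0.985). Of the 7, 3 lay above a ratio of 1 and 4 below, and Ptpn22 lay farthest from it. Over all 8 lists there were 148 distinct genes other than the 6, of which 21 were listed and 16 passed the filter. None of the 16 reached 2-fold on the log2(RPKM + 1) scale, their RPKM ratios ran from 0.695 to 2.66, and 9 were above 1 and 7 below. Of all models past the filter 4.51% reached 2-fold, and 52.0% of protein-coding genes were higher in Tet2-/-, so nothing particular to the lists is read from these counts.

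**Figure D3:**
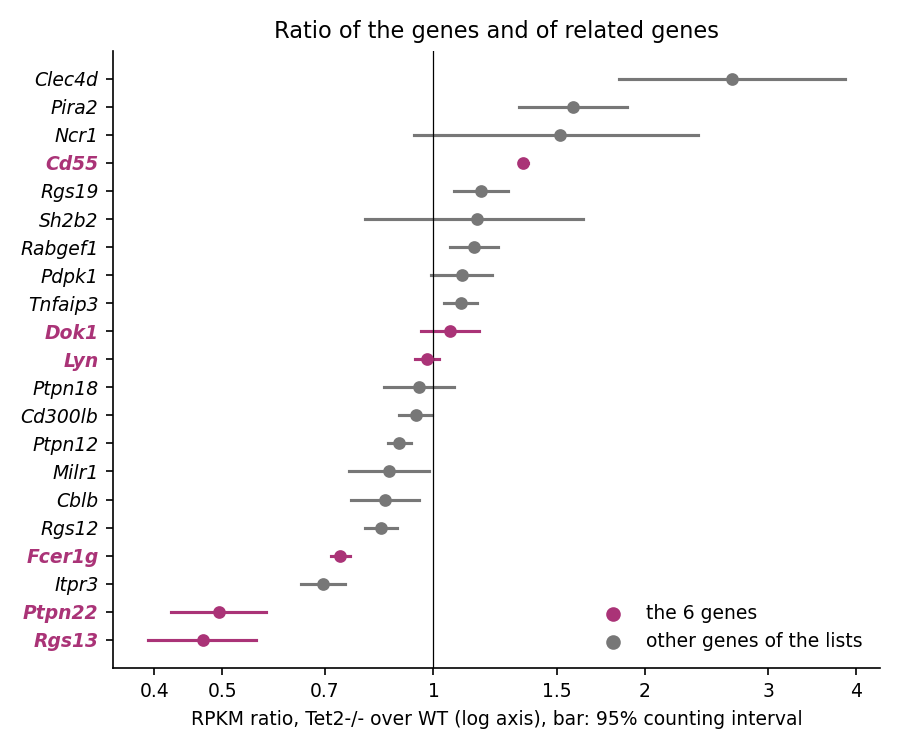
RPKM ratio of Tet2-/- to WT on a log axis for the 6 genes and for the 15 other genes of the fixed lists that passed a mean of 1 RPKM and have a fragment estimate, with bars for the 95% counting interval. Rgs13 at 0.469 and Ptpn22 at 0.495 are the lowest, Cd55 at 1.34 has the narrowest bar, and Clec4d at 2.66 is the highest of the genes plotted.

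Set against the whole table, the 6 genes did not stand beyond the size rule. The filter was a mean level of 1 RPKM or more, which all 6 passed, and genes counted as higher or lower at 2-fold or more on the log2(RPKM + 1) scale. None of the 6 passed, where 4.51% of 2107 models did, 2.90% higher and 1.61% lower in Tet2-/-. The log2 folds were -0.94 for Rgs13, -0.82 for Ptpn22, -0.44 for Fcer1g, -0.03 for Lyn, 0.08 for Dok1 and 0.42 for Cd55, with a median of -0.24 beside 0.01 over all models. The added 1 RPKM pulls low genes toward 0, and this decides the call of Rgs13. With 0.1 RPKM added instead, its log2 fold was -1.07 and it passed, as did 2.18% of models in the lower direction, while Ptpn22 at -0.99 did not. At 1.5-fold, Rgs13 and Ptpn22 passed, where 9.44% of models did in either direction. The counting interval left out a ratio of 1 for 4 of the 6 genes, but it did so for 51.9% of 1735 protein-coding genes as well, so at this depth an interval beyond 1 is common. Nothing is read from these counts, since the 6 were chosen with the values known.

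**Figure D4:**
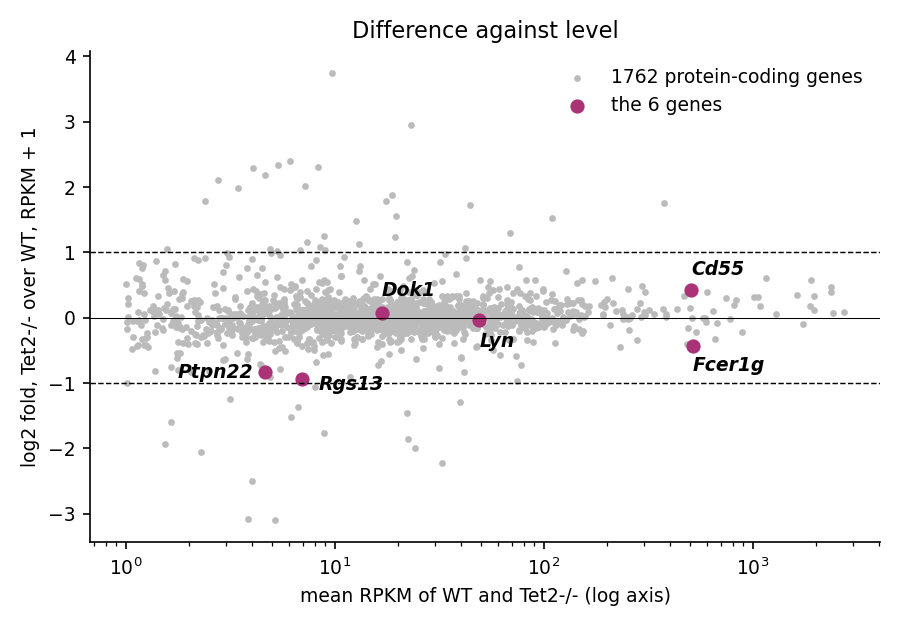
Log2 fold of Tet2-/- over WT, with 1 RPKM added, against the mean RPKM on a log axis for 1762 protein-coding genes (grey) and the 6 genes (coloured), with dashed lines at 2-fold. Rgs13 at -0.94 and Ptpn22 at -0.82 lie just inside the lower line, and Fcer1g and Cd55 lie on opposite sides of 0 at nearly the same level.

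The protein-coding genes nearest to each of the 6 were found by distance on log2 RPKM over the 2 libraries, a likeness that rests on 2 points. Nearest to Fcer1g were Ivns1abp, at 549 and 416 RPKM in WT and Tet2-/-, then Slc18a2 and Hnrnpk, at distances of 0.14, 0.18 and 0.22. Cd55 had the histone gene H3f3b beside it, at 442 and 594 RPKM and a distance of 0.04, followed by Cst7 and Ubb. Around Lyn lay Cln3, Khdrbs1 and Ube2r2, and around Dok1 lay Asl, Irgm1 and Cdca2, all within 0.06. For Ptpn22 they were Qprt, at 6.66 and 3.07 RPKM, Gm14296 and Mettl22, within 0.14. Rgs13 had no gene as close. The matrix proteoglycan gene Vcan, at 11.2 and 4.84 RPKM, was at 0.27, and Mief2 and Fbxl21 at 0.44 and 0.45.

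Genes near the 6 on their chromosomes were mostly level. Within 500 kb of Rgs13, the 2 protein-coding genes past the filter, Cdc73 and Trove2, had ratios of 0.951 and 1.104. Phtf1, the one such gene near Ptpn22, was at 18.3 RPKM in WT against 17.03 RPKM in Tet2-/-, with a ratio of 0.932. Near Fcer1g, Cd48, which encodes an adhesion receptor of leukocytes, was at 39.6 and 98.3 RPKM. The Cd48 ratio of 2.48 was past 2-fold, also on the log2(RPKM + 1) scale. Pfdn2, Atf6 and Dedd had ratios from 0.926 to 1.04. The 4 near Dok1 ran from 0.890 to 1.21, and near Lyn and Cd55 none of the genes analysed passed the filter. The genes named here were chosen after their values were seen. Of the 6 genes, 3 lie on chromosome 1, namely Fcer1g, Rgs13 and Cd55, far from one another, and they did not share a direction.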

How the data were processed

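RNA of 1 WT and 1 Tet2-/- mast cell culture was sequenced from 1 µg of total RNA each with a TruSeq kit, per the labels' protocols. The authors deposited RPKM values, per the file headers, and mm10 was the build, per the submitters' processing notes. The aligner, counting program, annotation and strandedness remain not given in the sources used here, so antisense reads cannot be separated. RPKM is relative, so a few abundant RNAs can shift all others. Symbols were matched to GENCODE mouse release 21 (7861 of 8139).

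The 6 genes and the lists were chosen with earlier results of these data known. Named were the 6, list genes reaching 10 RPKM or of a member's family, at most 3 markers a list, 3 nearest genes in level and overlapping or neighbouring genes. Beyond this rule, Itpr3, Clec4d, Clec4n, Pira2, Ncr1 and Fcgr4, list genes below 10 RPKM, were named after their values were seen. Cblb, Sh2b2 and Lilra5, also below 10 RPKM, were not described. Of the neighbouring genes, 1 is not reported here.

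Depth was inferred from values below 20 fragments of coding genes with 1 transcript. RPKM times reduced length times depth should then be a whole number. The depths and a shared length reduction of 180 bases were those with the highest share within 0.1 of one. That share was 88.2% of 93 WT genes (depth 31400000 fragments) and 88.3% of 103 Tet2-/- genes (depth 32000000). Chance gives 20% at 1 fixed setting and more at the best of many, so the share is no independent check of the depths. The value 0.01 filled 58.1% and 57.4% of models and was read as a stand-in for no reads, which is unsure because 67 WT and 80 Tet2-/- models lie below it. Fragment numbers used the shortest basic coding transcript of at least 400 bases. Coding genes ranked had a transcript of at least 500 bases. Scripts were tested on simulated data. Work was done in Python 3.11.15, with scipy 1.17.1 for intervals, pandas 2.3.3 and numpy 2.4.6 for tables and matplotlib 3.10.9 for plots.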

Additional observations from a re-analysis of the deposited data

How the results depend on the processing

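Pseudocounts of 0.1 and 5 and a median-ratio scaling, which shifted log2 folds by 0.01, were tried on the 6 genes. Of 18 alternative log2 folds, 16 stayed within the counting interval and 2 moved, to -0.47 for Ptpn22 and -0.62 for Rgs13 with a pseudocount of 5, and 0 changed sign. The count of the 6 genes past 2-fold, 0 as given, became 1 with a pseudocount of 0.1 and 2 at 1.5-fold, alternatives for this count that were chosen after seeing the data. Over all models, 61 were higher and 34 lower, with 33 and 14 at a pseudocount of 5, 40 and 16 at a mean of at least 5 RPKM, 123 and 76 at 1.5-fold, 27 and 10 at 4-fold and 30 and 16 among protein-coding genes of at least 500 bases. The higher mean and the protein-coding setting enter fewer models. The 23 alternative list medians each lay within 1.5-fold of the value given, but that margin is wider than any median given. At a mean of at least 5 RPKM the receptor list moved from -0.03 to -0.24 and the inhibitory list from -0.16 to -0.04. The RGS list moved from -0.24 to 0 with no filter, and the Fc receptor list from 0.42 to 0.21 with a pseudocount of 5. The longest transcript in place of the shortest put none of the 12 interval bounds across 1. That change scales both libraries alike and leaves each ratio as it was, so it could move the bounds only a little. No paired analysis was possible because WT and Tet2-/- have 1 library each, and leaving one out would end the comparison. The depths are inferred, and the intervals hold counting error only.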
